A study of Saccharomyces cerevisiae with 12 samples.

Results

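These results cover 42 genes of fatty acid, phospholipid and sphingolipid metabolism in budding yeast (Saccharomyces cerevisiae), among the 6177 genes of the deposited array table. They were chosen by systematic gene ID, as enzymes and regulators of these pathways, and all 42 had values. 41 had enough values to be tested, among 5890 genes tested. Total RNA of cells with the SAN1 gene was compared with total RNA of san1 mutant cells on the same array, with 6 arrays of cells grown in YEPD and 6 of cells grown in YC. The san1 allele, the strain background, any other marker that both strains carry, the composition of YC, the growth phase and the ages of the cultures are not analysed here, since no label gives them. YC arrays 1 to 3 were counted as YC, following their titles and source names, although their descriptions say YEPD.

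SAN1 encodes a nuclear ubiquitin ligase that marks misfolded proteins for degradation. YEPD is the rich medium of yeast work. Each array gives 1 ratio per gene, san1 over SAN1, so a value is a difference between strains and not a level, and values of different genes are not levels to be ranked. In RNA of a whole culture, fewer cells that express a gene and less of its RNA per cell cannot be told apart. The labels do not say whether the 6 arrays of a medium are separate cultures, and each p-value reflects only how far these arrays scatter, which may be technical.

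Yeast makes acyl chains on the fatty acid synthase, desaturates them with a single desaturase and lengthens some of them for sphingolipids. Phosphatidic acid is the branch point between membrane phospholipids and stored fat, and inositol sets the output of many phospholipid genes through the activators Ino2 and Ino4 and the repressor Opi1. Sphingolipids start from serine and palmitoyl-CoA and pass through long chain bases and ceramide to inositol phosphorylceramides. Mannose and a last inositol phosphate can then be added. The Orm proteins hold back the first enzyme.

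The direction of the ratio was set by the SAN1 row itself. Its deposited values lay between -4.57 and -3.67 where channel 1 held SAN1 RNA and between 2.69 and 3.89 where it held san1 RNA. Channel 2 was therefore taken as the numerator. A literal reading of the descriptions, which list SAN1 before san1, would turn every sign below. Turned to san1 over SAN1, the fitted value of SAN1 was -3.78 in YEPD (SE 0.15, n = 6, limma adjusted p = 2.2e-08) and -3.74 in YC (SE 0.15, n = 6, limma adjusted p = 2.5e-08). The deposited log ratios were taken as log2. A natural logarithm could not be told apart, and the folds would then be larger.

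In YC, the balance of the lipid genes was toward lower RNA in san1 cells. 16 of the 41 tested genes fell (39.0%), where 11.8% of all tested genes fell in YC, and 3 rose (7.32%), where 13.0% of all genes rose. The other 22 did not pass. A gene is called here where limma's adjusted p, taken over all 5890 genes, is under 0.05. The median fitted change was -0.12 on the log2 scale against -0.00 over all genes. Of the lipid genes, 36 of 41 lay below 0, where 2986 of all 5890 genes tested did. The called changes were small: their median size was 0.169 for the lipid genes and 0.164 for all genes called in YC.

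In YEPD, 2 of the 41 lipid genes fell, ALE1 and LAC1 (4.88%), where 0.323% of all genes fell, and 0 rose, where 1.71% of all genes rose. The median fitted change was -0.01 against 0.00 over all genes. At an unadjusted p under 0.05, 7 of the 41 lipid genes passed in YEPD, 27 in YC and 14 for the difference between media. Of all 5890 genes tested, 580, 2244 and 1701 did.

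The difference between media, the YC change minus the YEPD change in the same fit, was lower for 7 lipid genes (17.1%), where 4.26% of all genes passed in that direction. It was higher for 1 gene (2.44%), where 5.48% of all genes passed. The other 33 did not pass. The median difference was -0.09 against -0.01 over all genes. A dye term common to both media passed for 3 of the 41 genes, ELO1, SUR4 and LCB1, where it passed for 16.4% of all genes.

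**Figure D1:**
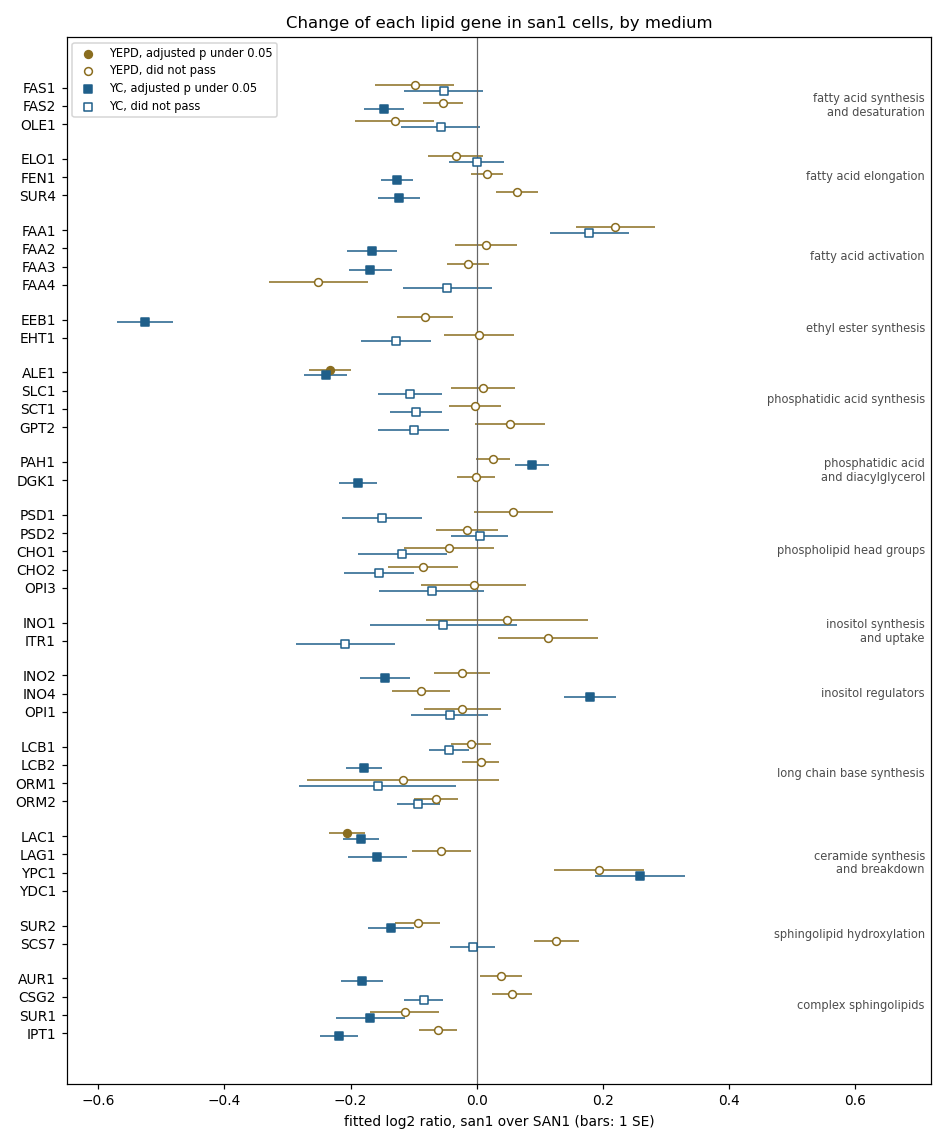
Fitted log2 ratio of san1 over SAN1 (horizontal axis, bars 1 SE) for the 41 tested lipid genes in YEPD (circles) and YC (squares), grouped by role, with filled symbols for an adjusted p under 0.05. 36 of the 41 YC values lie left of 0, and the 3 filled YC squares on the right are PAH1, INO4 and YPC1.

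These counts rest on treating each array as a separate sample. Averaging arrays n and n plus 3 of a medium, which carry the same 2 kinds of RNA with the dyes exchanged, left 11 lipid genes lower and 1 higher in YC, where 5.72% and 7.47% of all genes were lower and higher. The YC calls lost under this averaging were those of SUR4 (adjusted p = 0.067), FAA2 (0.08), INO2 (0.064), SUR2 (0.073), SUR1 (0.11), PAH1 (0.13) and YPC1 (0.1). It left the 2 lower genes in YEPD and 0 lipid genes for the difference between media, where 5 of the 5890 genes passed. The lowest adjusted p of a lipid gene for that difference was then 0.087, for EEB1, and every difference between media given below is lost under that averaging.

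Fatty acid synthesis gave 1 call. FAS1 (YKL182W) and FAS2 (YPL231W) encode the beta and alpha subunits of the fatty acid synthase. FAS2 read -0.12, -0.13, -0.10, -0.29, -0.19 and -0.06 on YC arrays 1 to 6 and -0.05, -0.09, -0.02, 0.01, -0.13 and -0.05 on YEPD arrays 1 to 6. All 6 YC values were below 0, but the ranges of the media overlapped. FAS2 fell in YC by 0.15 (SE 0.032, n = 6, adjusted p = 0.0061), and its fitted YEPD value was -0.05 (adjusted p = 0.68).

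FAS1 did not pass in either medium. It read -0.26, -0.04, 0.25, -0.15, -0.06 and -0.05 in YC and -0.18, -0.36, -0.21, 0.08, 0.02 and 0.06 in YEPD. In YEPD arrays 1 to 3 were low and arrays 4 to 6 near 0, which are the opposite dye orientations. Its fitted values were -0.05 in YC (SE 0.063, adjusted p = 0.57) and -0.10 in YEPD (adjusted p = 0.71). Whether the 2 subunits differ from each other was not tested.

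OLE1 (YGL055W) encodes the only delta-9 fatty acid desaturase of yeast. It read 0.26, -0.24, -0.10, 0.09, -0.19 and -0.17 in YC and -0.12, -0.27, -0.22, 0.07, -0.19 and -0.05 in YEPD. YC arrays 1 and 4 were the only YC arrays above 0. Its fitted values of -0.06 in YC (adjusted p = 0.53) and -0.13 in YEPD (SE 0.062, adjusted p = 0.53) did not pass. Without YC arrays 1 and 4 its YC value was -0.17 with an adjusted p of 0.023, and without YC arrays 2 and 5 it was 0.02 (0.86).

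The elongases ELO1 (YJL196C), FEN1 (YCR034W) and SUR4 (YLR372W) lengthen fatty acids, ELO1 acting on medium chains and the other two on the very long chains of sphingolipids. FEN1 read -0.16, -0.12, -0.20, -0.09, -0.09 and -0.10 in YC and -0.01, 0.07, 0.02, 0.01, 0.01 and 0.00 in YEPD. Every YC value lay below every YEPD value. The share of all genes whose media separate completely, as here and for EEB1, DGK1, INO4, LCB2 and AUR1 below, was not counted. FEN1 fell in YC by 0.13 (SE 0.026, n = 6, adjusted p = 0.0043), and its YC change was lower than its YEPD change by 0.14 (SE 0.036, adjusted p = 0.03). The difference lost its call without YEPD array 1, 3, 4 or 6 or YC array 3 or 6, with adjusted p between 0.06 and 0.069, and the YC call was lost without YC arrays 3 and 6 together (0.055).

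SUR4 read -0.07, -0.09, 0.03, -0.27, -0.18 and -0.16 in YC and 0.20, 0.19, 0.03, 0.04, -0.10 and 0.02 in YEPD. 5 of its 6 YC values were below 0, and the media overlapped. It fell in YC by 0.12 (SE 0.033, n = 6, adjusted p = 0.016), with a difference between media of -0.19 (SE 0.046, adjusted p = 0.029). The YC call was lost without YC array 4 (0.051). The difference was lost without YEPD array 1, 4 or 6 or YC array 4 or 6 (0.051 to 0.077). SUR4 is also 1 of the genes with a dye effect (dye term 0.08, adjusted p = 0.039), and without a dye term its YC call was lost (0.073). ELO1 had fitted values of -0.00 in YC and -0.03 in YEPD, with its own dye term of 0.10 (adjusted p = 0.04).

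The acyl-CoA synthetases activate free fatty acids. FAA1 (YOR317W) and FAA4 (YMR246W) take up most imported fatty acid, FAA2 (YER015W) acts in peroxisomes, and FAA3 (YIL009W) is a further long-chain enzyme. FAA3 read -0.09, -0.20, -0.23, -0.04, -0.26 and -0.18 in YC and -0.10, -0.05, -0.04, -0.02, 0.03 and 0.09 in YEPD. It fell in YC by 0.17 (SE 0.034, n = 6, adjusted p = 0.0041), a call lost without YC arrays 3 and 6 together (0.061). FAA2 read -0.32, -0.13, -0.21, -0.20, -0.08 and -0.06 in YC and -0.18, 0.01, 0.19 and 0.05 on the 4 YEPD arrays that measured it. All 6 YC values of FAA2 were below 0, and it fell by 0.17 (SE 0.04, n = 6, adjusted p = 0.012). For both genes the difference between media did not pass (adjusted p = 0.058 for FAA3 and 0.087 for FAA2). Leaving out YC array 1 or 4 gave FAA3 a call there (0.028 and 0.048), and leaving out YEPD array 2 gave FAA2 one (0.044).

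FAA1 and FAA4 did not pass. FAA1 was above 0 on all 6 YEPD arrays, between 0.10 and 0.30, with a fitted value of 0.22 (SE 0.063, adjusted p = 0.13). In YC it read -0.14 and -0.08 on arrays 1 and 4 and 0.25 to 0.37 on the other 4, with a fitted value of 0.18 (adjusted p = 0.054). The YC value was 0.32 (adjusted p = 0.00012) without arrays 1 and 4, and it passed without either of them (0.011 each). Without YC arrays 2 and 5 it was 0.10 (0.34). The YEPD value of FAA1 passed when YEPD was fitted alone (0.0044) or YC array 4 was left out (0.047). FAA4 had fitted values of -0.25 in YEPD (SE 0.078, n = 5, adjusted p = 0.2) and -0.05 in YC. Close copies such as FAA1 and FAA4 can bind each other's probe, and how far that touches these values was not tested.

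EEB1 gave the largest change of the 41 tested genes in YC. EEB1 (YPL095C) and its relative EHT1 (YBR177C) encode acyl-CoA:ethanol acyltransferases, which make the ethyl esters of medium-chain fatty acids. EEB1 read -0.72, -0.40, -0.54, -0.55, -0.34 and -0.60 in YC and -0.07, 0.01, -0.11, -0.15, -0.03 and -0.15 in YEPD. The groups did not overlap. EEB1 fell in YC by 0.53 on the log2 scale (SE 0.044, n = 6, adjusted p = 1.3e-05), which is 1.44-fold lower. Its fitted YEPD value was -0.08 (adjusted p = 0.62), and the difference between media was -0.44 (SE 0.063, adjusted p = 0.0035). That difference kept its call without any 1 array. EHT1 was at -0.13 in YC (SE 0.055, adjusted p = 0.11), with -0.30 and -0.43 on arrays 1 and 4 and -0.12 to 0.06 on the other 4, and at 0.00 in YEPD. Its YC value without YC arrays 1 and 4 was -0.01 (0.89), and without YC arrays 2 and 5 it was -0.20 (0.049).

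Among the acyltransferases that build phosphatidic acid, ALE1 was lower in both media. SCT1 (YBL011W) and GPT2 (YKR067W) acylate glycerol 3-phosphate, and SLC1 (YDL052C) and ALE1 (YOR175C) add the other acyl chain, ALE1 with a broad range of lysophospholipids. ALE1 read -0.28, -0.38, -0.24, -0.08, -0.27 and -0.15 in YEPD and -0.24, -0.19, -0.29, -0.28, -0.25 and -0.19 in YC, so all 12 values were below 0. It fell by 0.23 in YEPD (SE 0.034, n = 6, adjusted p = 0.0014) and by 0.24 in YC (SE 0.034, n = 6, adjusted p = 0.00053), which is 1.18-fold lower in YC. The difference between media was -0.01 (SE 0.047, adjusted p = 0.95). SLC1, SCT1 and GPT2 had YC values between -0.11 and -0.10 (adjusted p 0.11 to 0.21) and YEPD values between -0.00 and 0.05. SLC1 and SCT1 passed in YC without YC array 5 (0.04 and 0.025). Without YC arrays 1 and 4, SLC1, SCT1 and GPT2 were at -0.03 (0.67), -0.08 (0.23) and -0.02 (0.8). Without YC arrays 2 and 5 they were at -0.20 (0.011), -0.14 (0.044) and -0.21 (0.013).

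PAH1 (YMR165C) and DGK1 (YOR311C) catalyse opposite reactions, PAH1 as the phosphatidate phosphatase that makes diacylglycerol and DGK1 as the CTP-dependent kinase that turns it back. DGK1 read -0.23, -0.18, -0.24, -0.15, -0.08 and -0.25 in YC and 0.03, -0.01, -0.02, 0.09, -0.06 and -0.04 in YEPD. Every YC value lay below every YEPD value. DGK1 fell in YC by 0.19 (SE 0.03, n = 6, adjusted p = 0.0013), with a difference between media of -0.19 (SE 0.043, adjusted p = 0.022) that was lost without YEPD array 1 or 4 or YC array 6 (0.056 to 0.066). PAH1 was above 0 on all 6 YC arrays, between 0.01 and 0.17, and rose by 0.09 (SE 0.027, n = 6, adjusted p = 0.031). The PAH1 call was lost without YC array 1, 2, 3, 4 or 6 (0.054 to 0.076). The 2 genes thus passed in opposite directions in YC, and their contrast with each other was not tested.

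**Figure D2:**
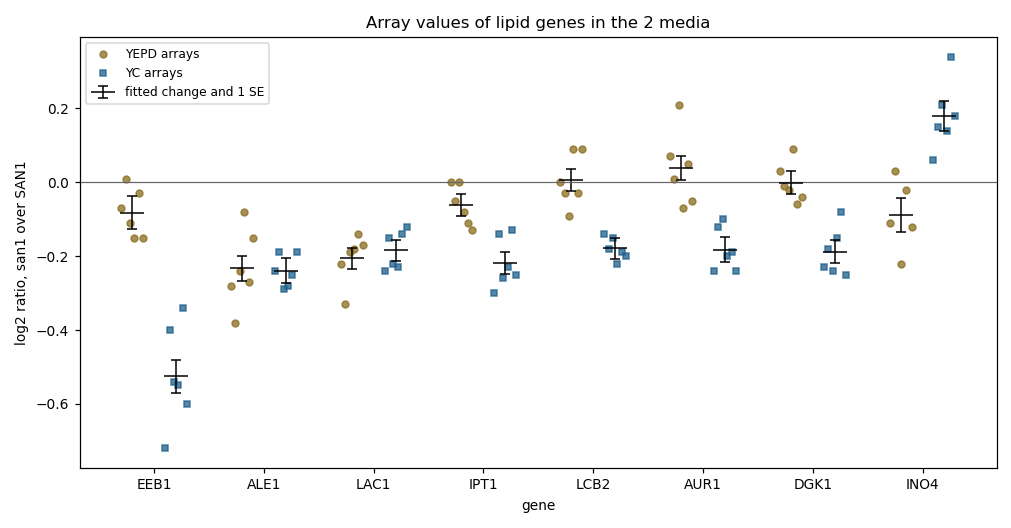
Log2 ratio of san1 over SAN1 on each array for 8 called genes, chosen after their values were seen, with YEPD arrays as circles, YC arrays as squares and black bars for the fitted change and 1 SE. ALE1 and LAC1 lie below 0 in both media, EEB1, LCB2, AUR1 and DGK1 lie lower on every YC array than on any YEPD array, and INO4 lies higher on every YC array. The share of all genes separated this way was not counted.

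The head-group enzymes gave 0 calls among 5. CHO1 (YER026C) makes phosphatidylserine, PSD1 (YNL169C) and PSD2 (YGR170W) decarboxylate it to phosphatidylethanolamine, and CHO2 (YGR157W) and OPI3 (YJR073C) methylate that to phosphatidylcholine. Their fitted YC values were -0.12 for CHO1 (adjusted p = 0.24), -0.15 for PSD1 (0.098), 0.00 for PSD2 (0.96), -0.15 for CHO2 (0.057) and -0.07 for OPI3 (0.56). Their YEPD values lay between -0.09 and 0.06. At an unadjusted p under 0.05, 2 of the 5 passed in YC, where 2244 of all 5890 genes tested did. PSD1 passed without YC array 2 (0.043) and CHO2 without YC array 3 (0.049). Leaving out YC arrays 1 and 4 gave values of -0.02 for PSD1 (0.79), -0.07 for CHO2 (0.3), 0.02 for CHO1 (0.86) and 0.04 for OPI3 (0.68). Leaving out YC arrays 2 and 5 gave -0.25 for PSD1 (0.021), -0.17 for CHO2 (0.13), -0.25 for CHO1 (0.026) and -0.19 for OPI3 (0.16).

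The YC values of CHO1, PSD1 and OPI3 were widely spread. CHO1 read -0.47, 0.14, -0.06, -0.31, 0.14 and -0.16, and PSD1 read -0.56, 0.02, -0.09, -0.28, 0.09 and -0.09. Arrays 1 and 4 were the lowest for both. OPI3 read -0.55, 0.11, -0.05, -0.05, 0.22 and -0.11, with array 1 far below the rest. In YEPD the same genes stayed within narrower ranges, CHO1 for instance between -0.22 and 0.12.

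The genes for inositol synthesis and uptake gave 0 calls. At an unadjusted p under 0.05, 1 of the 2 passed in YC, where 2244 of all 5890 genes tested did. INO1 (YJL153C) encodes inositol-3-phosphate synthase, the best known target of Ino2 and Ino4, and ITR1 (YDR497C) the main inositol transporter. INO1 read -0.54, 0.32, 0.25, -0.64, 0.25 and 0.05 in YC and 0.21, 0.19, -0.01, 0.01 and -0.09 on the 5 YEPD arrays that measured it. Arrays 1 and 4 were far below the other 4 YC arrays, all of which were above 0. Its YC range of 0.96 was the widest of the 42 genes. The fitted YC value of INO1 was -0.05 (SE 0.12, n = 6, adjusted p = 0.77). Without YC arrays 1 and 4, a choice made after seeing the data, the sign turned and the value was 0.21 with an adjusted p of 0.0097. Without YC arrays 2 and 5 it was -0.22 (0.24).

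ITR1 read -0.66, -0.02, -0.14, -0.51, 0.02 and 0.04 in YC and 0.04 to 0.24 in YEPD. It was again lowest on YC arrays 1 and 4. Its fitted values were -0.21 in YC (SE 0.079, adjusted p = 0.07) and 0.11 in YEPD (adjusted p = 0.75), with a difference of -0.32 (SE 0.11, adjusted p = 0.079). Without YC arrays 1 and 4 its YC value was -0.02 (adjusted p = 0.68), whereas leaving out YC array 2 gave -0.26 and a call (0.04). Without YC arrays 2 and 5 it was -0.31 (0.033).

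The regulators of these genes moved in different directions. INO4 (YOL108C) and INO2 (YDR123C) encode the partners of the heterodimer that activates inositol-responsive genes, and OPI1 (YHL020C) its repressor. INO4 read 0.06, 0.15, 0.21, 0.14, 0.34 and 0.18 in YC and -0.11, 0.03, -0.22, -0.02 and -0.12 on the 5 YEPD arrays that measured it. Every YC value lay above every YEPD value. INO4 rose in YC by 0.18 (SE 0.041, n = 6, adjusted p = 0.0091), and it was the 1 lipid gene with a higher difference between media, of 0.27 (SE 0.061, adjusted p = 0.024). That difference was lost without YEPD array 1, 4 or 6 or YC array 6 (0.053 to 0.067). INO2 was below 0 on all 6 YC arrays, between -0.28 and -0.01, and fell by 0.15 (SE 0.04, n = 6, adjusted p = 0.021), a call lost without YC array 2 or 5 (0.065 and 0.068). OPI1 stood at -0.04 in YC and -0.02 in YEPD, with neither passing.

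**Figure D3:**
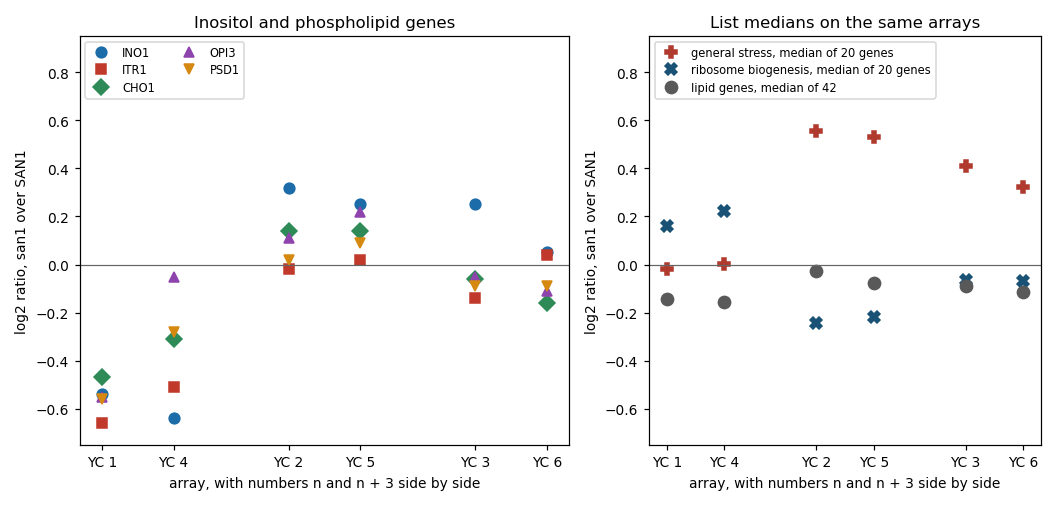
Log2 ratio of san1 over SAN1 on the 6 YC arrays, with numbers n and n plus 3 side by side, for 5 inositol and phospholipid genes (left) and as medians of 20 general stress genes, 20 ribosome biogenesis genes and the 42 lipid genes (right). INO1, ITR1, CHO1 and PSD1 are lowest on arrays 1 and 4, the arrays on which the stress median is near 0.

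YC arrays 1 and 4 stood apart for more than the inositol genes. Both lay below all other YC arrays for 10 of the 40 lipid genes with 6 YC values (25.0%), where they did so for 11.2% of all genes. Both lay above them for 2 of the 40 (5.00%), where 11.7% of all genes did. The 10 were EHT1, ITR1, CHO1, CHO2, INO1, LAC1, FAS1, PSD1, INO4 and FAA1, and the 2 were OLE1 and FAA3. This count was made after the values were seen.

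Growth-related genes differed between the same arrays. The median of 20 general stress genes was -0.02, 0.55, 0.41, 0.00, 0.53 and 0.32 on YC arrays 1 to 6, and that of 20 ribosome biogenesis genes was 0.16, -0.24, -0.07, 0.22, -0.22 and -0.07. In YEPD the stress medians lay between 0.00 and 0.10. Of the stress genes, 12 of 20 rose in YC (where 13.0% of all genes rose) and 1 fell. Of the ribosome biogenesis genes, 3 of 20 fell (15.0%, near the 11.8% of all genes) and 0 rose. The part of this in the lipid results was not tested. The median of the lipid genes was below 0 on every YC array, at -0.15, -0.03, -0.09, -0.15, -0.08 and -0.12, and 24 to 36 of the measured lipid genes were below 0 on each. Without YC arrays 1 and 4, 12 lipid genes were lower and 4 higher in YC, where 11.3% and 12.8% of all genes were. Without YC arrays 2 and 5, 22 were lower and 0 higher, where 9.8% and 9.73% of all genes were.

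Sphingolipid synthesis starts with serine palmitoyltransferase, made of LCB1 (YMR296C) and LCB2 (YDR062W). LCB2 read -0.14, -0.18, -0.15, -0.22, -0.19 and -0.20 in YC and 0.00, -0.03, -0.09, 0.09, -0.03 and 0.09 in YEPD. The YC values lay close together and below all YEPD values. LCB2 fell in YC by 0.18 (SE 0.029, n = 6, adjusted p = 0.0014), with a difference between media of -0.18 (SE 0.041, adjusted p = 0.02). That difference was lost without YEPD array 1, 4 or 6 (0.051 to 0.06). LCB1 had fitted values of -0.04 in YC (adjusted p = 0.33) and -0.01 in YEPD, and a dye term of 0.08 (adjusted p = 0.033).

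ORM1 (YGR038W) and ORM2 (YLR350W), whose proteins inhibit that enzyme, did not pass. ORM1 read -0.14, 0.10, -0.64, -0.15, -0.26 and 0.15 in YC and 0.25, 0.14, -0.08 and -0.77 on the 4 YEPD arrays that measured it, a spread that spans 0 in both media. Its fitted values were -0.16 in YC (SE 0.12, adjusted p = 0.39) and -0.12 in YEPD (SE 0.15, adjusted p = 0.9). ORM2 read -0.12, 0.02, -0.14, -0.12, -0.09 and -0.10 in YC and -0.02, 0.10, 0.05, -0.12, -0.22 and -0.18 in YEPD. 5 of its 6 YC values were below 0, and its fitted YC value was -0.09 (SE 0.035, adjusted p = 0.068).

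Ceramide synthesis held the other gene that was lower in both media. LAC1 (YKL008C) and LAG1 (YHL003C) encode the catalytic subunits of ceramide synthase. LAC1 read -0.22, -0.33, -0.19, -0.18, -0.14 and -0.17 in YEPD and -0.24, -0.15, -0.22, -0.23, -0.14 and -0.12 in YC, all below 0. It fell by 0.21 in YEPD (SE 0.028, n = 6, adjusted p = 0.0011) and by 0.18 in YC (SE 0.028, n = 6, adjusted p = 0.001), with a difference between media of 0.02 (adjusted p = 0.77). Its close copy LAG1 fell in YC by 0.16 (SE 0.047, n = 6, adjusted p = 0.027), and its YEPD value was -0.06 (adjusted p = 0.8). The LAG1 call was lost without YC array 3, 4, 5 or 6 (0.054 to 0.096).

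The ceramidases YPC1 (YBR183W) and YDC1 (YPL087W) break ceramide down. YPC1 rose in YC by 0.26 (SE 0.071, n = 5, adjusted p = 0.023), which is 1.20-fold higher, with 0.44, 0.14, 0.02, 0.56 and 0.13 on arrays 2 to 6. Arrays 2 and 5 carried the high values, and without both the value was 0.09 (adjusted p = 0.2). Without array 2 alone it was 0.19 (0.1), and without array 5 alone 0.18 (0.059). In YEPD, YPC1 read 0.10 to 0.29 on 5 arrays, with a fitted value of 0.19 (adjusted p = 0.34). That YEPD value passed when YEPD was fitted alone (0.032) or YC arrays 2 and 5 were left out (0.039). YDC1 had too few values to be tested. It read -0.11, 0.29, 0.07, 0.26 and -0.07 on 5 YC arrays and 0.21, -0.01, 0.05 and -0.18 on 4 YEPD arrays, with values on both sides of 0 in each medium.

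The hydroxylases act on the long chain base, SUR2 (YDR297W), and on the very long acyl chain, SCS7 (YMR272C). SUR2 read -0.29, -0.09, -0.19, -0.14, 0.04 and -0.15 in YC and -0.11, -0.18, -0.02, -0.04, -0.08 and -0.13 in YEPD. It fell in YC by 0.14 (SE 0.036, n = 6, adjusted p = 0.016), a call lost without YC array 6 (0.058). In YEPD all 6 SUR2 values were below 0, but the fitted value of -0.09 did not pass (adjusted p = 0.36). SCS7 was above 0 on all 6 YEPD arrays, between 0.06 and 0.19, with a fitted value of 0.13 (SE 0.035, adjusted p = 0.13), and stood at -0.01 in YC.

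Of the 4 genes that build complex sphingolipids from ceramide, 3 fell in YC, where 11.8% of all genes fell. All 4 had negative fitted values in YC, where 2986 of all 5890 genes tested did. AUR1 (YKL004W) encodes inositol phosphorylceramide synthase, CSG2 (YBR036C) and SUR1 (YPL057C) act in adding mannose, and IPT1 (YDR072C) adds the last inositol phosphate. AUR1 read -0.24, -0.12, -0.10, -0.20, -0.19 and -0.24 in YC and 0.07, 0.01, 0.21, -0.07, 0.05 and -0.05 in YEPD, and the groups did not overlap. AUR1 fell in YC by 0.18 (SE 0.033, n = 6, adjusted p = 0.0024), with a difference between media of -0.22 (SE 0.046, adjusted p = 0.016). The AUR1 difference kept its call without any 1 array and lost it without YC arrays 3 and 6 together (0.078).

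IPT1 read -0.30, -0.14, -0.26, -0.23, -0.13 and -0.25 in YC and 0.00, -0.05, 0.00, -0.08, -0.11 and -0.13 in YEPD. It fell in YC by 0.22 (SE 0.03, n = 6, adjusted p = 0.00053), which is 1.16-fold lower. Its difference between media of -0.16 (SE 0.043, adjusted p = 0.038) was lost without YEPD array 1, 3, 4, 5 or 6 or YC array 3, 4 or 6 (0.054 to 0.095). SUR1 fell in YC by 0.17 (SE 0.055, n = 6, adjusted p = 0.04), a call lost without YC array 1, 3, 4 or 6 (0.079 to 0.14). CSG2 was at -0.08 in YC (adjusted p = 0.067) and passed without YC array 5 (0.026), while without YC arrays 1 and 4 it was at -0.05 (0.31). Without YC arrays 2 and 5 it was at -0.12 (0.032).

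**Figure D4:**
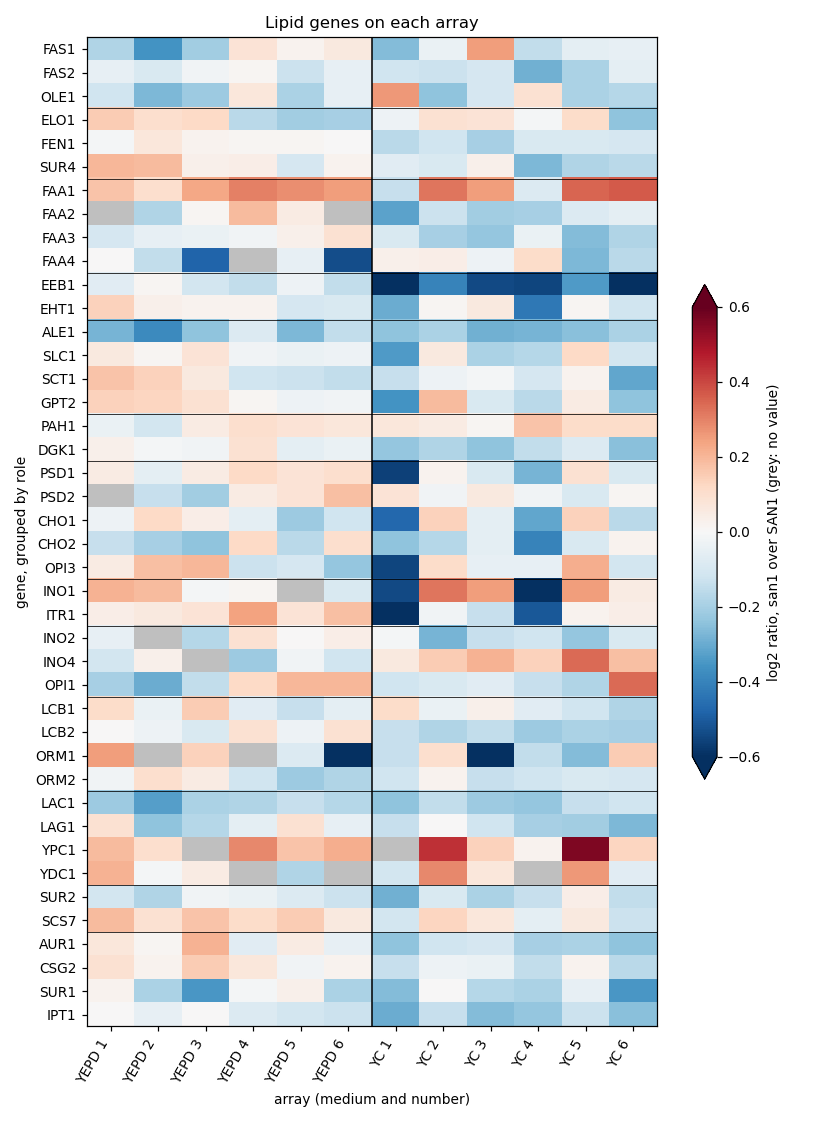
Log2 ratio of san1 over SAN1 for the 42 lipid genes (vertical axis, grouped by role) on each of the 12 arrays (horizontal axis), red for higher and blue for lower in san1, grey for no value, with the colour scale ending at 0.6 on either side. The YC arrays on the right are mostly blue, with EEB1 the darkest across all 6 and INO1, ITR1, CHO1 and PSD1 dark on YC arrays 1 and 4.

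Other genes of lipid metabolism, 82 tested of 85 in 8 lists, were counted the same way. These lists were chosen with earlier results of these data known. In YC 4 rose (4.88%, where 13.0% of all genes rose), 15 fell (18.3%, where 11.8% of all genes fell) and 63 did not pass, with a median of -0.04. In YEPD 1 rose, LCB4 (1.22%, where 1.71% of all genes rose), and 0 fell (where 0.323% of all genes fell). At an unadjusted p under 0.05, 8 of the 82 passed in YEPD, where 580 of all 5890 genes tested did. For the difference between media 1 was higher (1.22%, where 5.48% of all genes were higher), 5 were lower (6.10%, where 4.26% were lower) and 76 did not pass. Averaging arrays n and n plus 3 left ECI1 higher in YC and PEX11, PHS1, EPT1, CDS1, GEP4 and PLB2 lower, and none for the difference. The other 12 YC calls named below were lost under it, with adjusted p between 0.061 and 0.13.

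Of 16 genes for acyl-CoA supply, beta-oxidation and its regulators, 1 rose (6.25%, where 13.0% of all genes rose) and 3 fell in YC (18.8%, where 11.8% of all genes fell). ECI1, an enoyl-CoA isomerase, rose by 0.17 (SE 0.034, adjusted p = 0.0036), while PEX11, which promotes peroxisome division, fell by 0.22 (adjusted p = 0.0058). The peroxisomal catalase gene CTA1 fell by 0.11 (adjusted p = 0.019) and the thioesterase gene TES1 by 0.15 (0.033). The CTA1 call was lost without YC array 2 or 6 (0.059 and 0.051), and the TES1 call without YC array 1, 3 or 4 (0.092 to 0.1). Without a dye term both YC calls were lost (0.18 for CTA1 and 0.063 for TES1). CTA1 read 0.05, -0.06 and 0.02 on YC arrays 1 to 3. On YC arrays 4 to 6, of the opposite dye orientation, it read -0.23, -0.21 and -0.22. ECI1 and CTA1 also passed for the difference between media (0.17 with 0.04, and -0.15 with 0.039), each losing that call without several single arrays. Without a dye term those differences lost their calls too (0.12 for ECI1 and 0.24 for CTA1).

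The 9 genes of the Kennedy pathway make phosphatidylcholine and phosphatidylethanolamine from choline and ethanolamine. In YC 1 rose (11.1%, where 13.0% of all genes rose) and 3 fell (33.3%, where 11.8% of all genes fell). EPT1 and CPT1, the last enzymes of its ethanolamine and choline branches, fell by 0.15 (adjusted p = 0.0035) and 0.14 (0.014), and the choline transporter gene HNM1 fell by 0.15 (0.01). ECT1, for the ethanolamine branch, rose by 0.13 (0.021), a call lost without YC array 2, 5 or 6 (0.055 to 0.072). EPT1 and CPT1 also had lower differences between media, of -0.16 (0.033) and -0.17 (0.047), which were lost without several single arrays, with adjusted p up to 0.083 and 0.11.

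Of 15 genes around CDP-diacylglycerol and cardiolipin, 3 fell in YC (where 11.8% of all genes fell) and 0 rose (where 13.0% did). In YC 4 of the 15 passed at an unadjusted p under 0.05, where 2244 of all 5890 genes tested did. CDS1, which makes CDP-diacylglycerol from phosphatidic acid, fell by 0.20 (adjusted p = 0.004), and GEP4, a phosphatase of the cardiolipin route, by 0.17 (0.0048). PGS1, its first enzyme, fell by 0.12 (0.038), a call lost without YC array 3, 4 or 6 or YEPD array 5 or 6 (0.051 to 0.13). CDS1 and GEP4 had lower differences between media of -0.21 (0.038) and -0.18 (0.037). Both were lost without YEPD array 1, 3, 4 or 5 among others, with adjusted p up to 0.095 and 0.083.

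In long chain base and ceramide metabolism, 2 of 15 genes rose and 2 fell in YC (13.3% in each direction), near the 13.0% and 11.8% of all genes. The long chain base kinase gene LCB4 rose by 0.12 in YEPD (adjusted p = 0.032) and 0.09 in YC (0.023). DPL1, the lyase for phosphorylated long chain bases, rose by 0.12 (0.02) in YC, while the phosphatase gene LCB3 fell by 0.14 (0.014) and the phospholipase gene ISC1 by 0.13 (0.017). LCB4 lost its YEPD call without any 1 YEPD array (0.051 to 0.17) and its YC call without YC array 1, 4 or 5 (0.05 to 0.059). DPL1 lost its call without YC array 2, 3 or 6 (0.051 to 0.08), LCB3 without array 6 (0.053) and ISC1 without array 3 or 6 (0.05 and 0.052).

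The other lists each gave a single YC call, toward lower RNA, where 11.8% of all genes fell. PLB2, a phospholipase B gene, fell by 0.19 (adjusted p = 0.0027), and ARE1, for a sterol acyltransferase, by 0.19 (0.013). PHS1, the dehydratase of very long chain elongation, fell by 0.18 (0.029), a call lost without YC array 1, 2, 3 or 6 (0.05 to 0.076). RSP5, the ubiquitin ligase that activates the regulators of OLE1, fell by 0.12 (0.03), lost without YC array 4, 5 or 6 (0.067 to 0.1). The phospholipase list held 8 tested genes (12.5% lower) and the sterol ester and triacylglycerol list 12 (8.33%), near or below the share of all genes. The elongation list held 3 (33.3%) and the fatty acid regulation list 4 (25.0%).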

How the data were processed

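The authors deposited 1 log ratio per array and spot, taken here as log2. Medians of the 12 columns were -0.00286 to 0.00328, and 5836 to 6180 values were given per array. Of the log base, numerator, scanner, background correction, normalization and filters, no account is given in the sources used here. Intensities and depth are unknown, and the number of arrays limits the precision.

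Of 6204 rows, 5704 matched a locus tag and 42 a synonym of the RefSeq table (assembly R64, names only), and 458 kept the file's name. Rows of a gene were averaged. Arrays were centred on their median and turned to san1 over SAN1. limma 3.58.1 in R 4.3.3 fitted a mean per medium and a common dye term over the 5890 genes with at least 2 values per orientation and medium (prior degrees of freedom 3.76). 287 genes were left out. Tests were two-sided with Benjamini-Hochberg adjustment over all tested genes. Genes with empty cells were fitted on the values present. The fit was tested on simulated data with independent noise on every array, so that test does not cover arrays that share RNA.

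Array values are given for the 14 called genes with the lowest adjusted p and for INO1, OLE1, FAS1, FAS2, ORM1 and ORM2, other lipid genes by fitted values or ranges, and up to 4 called genes of each further list. A few array values of other genes were added after they were seen. The genes and lists were chosen with earlier results of these data known. Sequences were not used here, so the planned motif counts and protein identities were not computed. Deviations of each array from the mean of its medium and dye orientation were correlated. Across media, arrays of the same number gave -0.316 to 0.182, so the numbers were not taken to pair them. Figures were drawn with matplotlib 3.10.9.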

Additional observations from a re-analysis of the deposited data

Results flagged for a closer look

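Among 84 sets of 4 to 6 array values, 1 for each lipid gene and medium, 2 held a value far from the others (2.38%), where chance gives about 5%. OPI1 read 0.34 on YC array 6 and -0.18 to -0.07 on the other YC arrays. ORM2 read 0.02 on YC array 2 and -0.14 to -0.09 on the other YC arrays.

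For 8 lipid genes the strain difference itself differed between the media in the limma fit. The YC change minus the YEPD change was -0.44 for EEB1, -0.22 for AUR1, -0.19 for SUR4, -0.19 for DGK1, -0.18 for LCB2, -0.16 for IPT1, -0.14 for FEN1 and 0.27 for INO4. EEB1 and AUR1 kept this call when any 1 array was left out. None of the 8 kept it when arrays n and n plus 3 were averaged, with adjusted p between 0.087 and 0.15.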

How the results depend on the processing

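8 of the 19 YC calls among the lipid genes were kept under all 27 alternatives: ALE1, AUR1, DGK1, EEB1, FAS2, IPT1, LAC1 and LCB2. The 2 YEPD calls were kept throughout. No called lipid gene changed sign.

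With 1 array left out at a time, 13 to 17 genes were lower in YC and 1 to 3 higher, 2 lower and 0 to 1 higher in YEPD, and 2 to 8 lower and 0 to 1 higher for the difference between media. The 2 came without YEPD array 1 or 4. Over these settings 7.45% to 12.2% of all genes were lower and 9.2% to 14.4% higher in YC. In YEPD 0.221% to 0.458% of all genes were lower and 1.15% to 1.85% higher. For the difference 1% to 5.67% were lower and 1.87% to 7.91% higher. Arrays of the same number in the 2 media were not taken to be pairs. With the array number as a replicate block, 1 lipid gene was higher and 11 lower in YC. This block left 2 lower in YEPD, and 0 higher and 1 lower for the difference. The YC calls lost with the block were those of FAA2, SUR4, LAG1, SUR2, SUR1, PAH1 and YPC1. With arrays n and n plus 3 averaged, 1 was higher in YC and 0 higher and 0 lower for the difference. Fitting each medium alone gave 2 higher in YEPD and 1 higher in YC, where 2.02% and 8.81% of all genes were. Without YC arrays 1 and 4, 1 was higher in YEPD, where 1.97% of all genes were. Without YC arrays 2 and 5, 1 was higher in YEPD, and 0 were higher and 22 lower in YC. For the difference 12 were then lower. Of all genes, 1.61% were higher in YEPD, 9.73% higher and 9.8% lower in YC, and 4.14% lower for the difference. Without YC arrays 3 and 6, 0 were higher and 9 lower in YC, and 0 higher and 1 lower for the difference. Of all genes, 5.55% were higher and 3.72% lower in YC, and 0.73% higher and 0.323% lower for the difference. Without a dye term 4 were lower for the difference, where 1.36% of all genes were. Genes measured on all arrays gave 0 higher for the difference, since INO4 was then not among them. With YEPD arrays 4 and 6 averaged, which lay closest together, 0 were higher and 3 lower for the difference. Of all genes, 2.21% were then higher and 1.21% lower. The cause of these shifts was not tested. The settings that leave out or average chosen arrays were added after seeing the data.

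Over all genes, 765 were higher and 697 lower in YC, 497 and 404 with the replicate block, and 440 and 337 with arrays n and n plus 3 averaged. For the difference, 323 and 251 became 28 and 18, and 1 and 4. Each array was also taken as deviations from the mean of its medium and dye orientation. Between arrays n and n plus 3, for n of 1, 2 and 3, these deviations correlated at 0.367, 0.231 and 0.029 in YEPD. In YC they correlated at 0.374, 0.518 and -0.217. Whether these arrays share RNA extracts is not given in the labels. Motif windows were not run.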
